A study of Homo sapiens and Mus musculus with 10 samples.

Results

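The genes described here are 9 targets of the transcription factor NRF2 that act against oxidative stress, taken by symbol (HMOX1, NQO1, GCLM, GCLC, TXNRD1, SRXN1, TXN, PRDX1 and FTH1) from a human table of 63140 gene rows. All 9 were found, each on 1 row, and all 9 passed the filter on low values. The libraries came from A375, an established human melanoma cell line, grown for 24 h without peptide (Ctrl, n = 3) or with the antimicrobial peptide LL-37 at 80 µg/mL (n = 3, biological triplicates per the series text). The controls were left untreated, and the labels name no vehicle or scrambled peptide. Expression was given as TPM, a unit that corrects for transcript length and library total, so that levels can be compared between genes. TPM keep no sequencing depth, and no counting interval can be given.

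NRF2, encoded by NFE2L2, is held at a low level in resting cells because KEAP1 presents it to the ubiquitin ligase scaffold CUL3 for degradation. Oxidants and electrophiles modify KEAP1, NRF2 then accumulates, pairs with a small MAF protein and binds antioxidant response elements in the DNA near its target genes, while BACH1 competes for the same elements as a repressor. The targets make glutathione, reduce thioredoxin and peroxiredoxins, break down heme, store iron and detoxify quinones, and tumour cells can use them to tolerate oxidative damage.

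One feature of the libraries touches every value below. LL-37 replicate 3 differed from the rest: 12991 genes reached 1 TPM in it and 14304 to 14555 in the other libraries, and its 50 most abundant genes held 39.8% of TPM where theirs held 29.8% to 31.1%. Mitochondrially encoded genes held 1.84% of TPM in it and 3.47% to 4.38% elsewhere. Results are therefore given with and without it. Of the 10 melanoma line markers listed, SOX10 (147 to 387 TPM), CSPG4 (56.1 to 240.6 TPM), PRAME (57.55 to 77.67 TPM) and VIM (1223 to 2402 TPM) were present in all 6 libraries. MITF was low, at 1.75 to 5.45 TPM, and PMEL was at 0.12 to 1.25 TPM. The pigment genes TYR and MLANA were at 0 or under 1 TPM. Although the protocol text names keratinocytes as the starting material, the keratinocyte genes KRT1, TP63 and DSG3 were at 0 in every library, and the 9 keratinocyte markers found summed to 30.9 to 32.1 TPM in Ctrl and 23.1 to 29.1 TPM with LL-37, most of it KRT10 (18.4 to 26.1 TPM). The fibroblast, leukocyte and endothelial marker lists summed to at most 8.02, 42.8 and 3.27 TPM in any library.

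NQO1 was the gene of the 9 whose LL-37 libraries all lay above all Ctrl libraries. Its mean level was 1.16 times that of Ctrl, and this ratio was 1.17 without LL-37 replicate 3. HMOX1, TXNRD1 and GCLM were higher than every Ctrl library in LL-37 replicates 1 and 2 but not in replicate 3, where GCLC, GCLM and TXNRD1 were at 0.496, 0.559 and 0.585 times the Ctrl mean. PRDX1, TXN, FTH1 and SRXN1 stayed within 0.85 to 1.09 times the Ctrl mean in every LL-37 library. None of the 9 passed an adjusted p under 0.05 in limma's moderated test on log2(TPM + 1), with or without that library.

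Of the 14399 genes tested, 0% passed with all 6 libraries (363 had an unadjusted p under 0.05, or 2.52%) and 0.118% passed without LL-37 replicate 3 (17 genes, with an unadjusted p under 0.05 for 9.01%). Among the 9, NQO1 alone had an unadjusted p under 0.05 over the 6 libraries, and NQO1 and TXNRD1 did with LL-37 replicate 3 left out. In 1 of the 9 every LL-37 library exceeded every Ctrl library, where 2.13% of all tested genes were apart in that direction. For 0 of the 9 were they apart and lower, against 10.3% of all tested genes. Without LL-37 replicate 3, 4 of the 9 were apart and higher (12.3% of all tested genes) and 2 were apart and lower (12.9%). The median log2 difference of the 9 was -0.07, beside -0.20 for all tested genes, and without that library both medians rounded to 0.00.

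**Figure D1:**
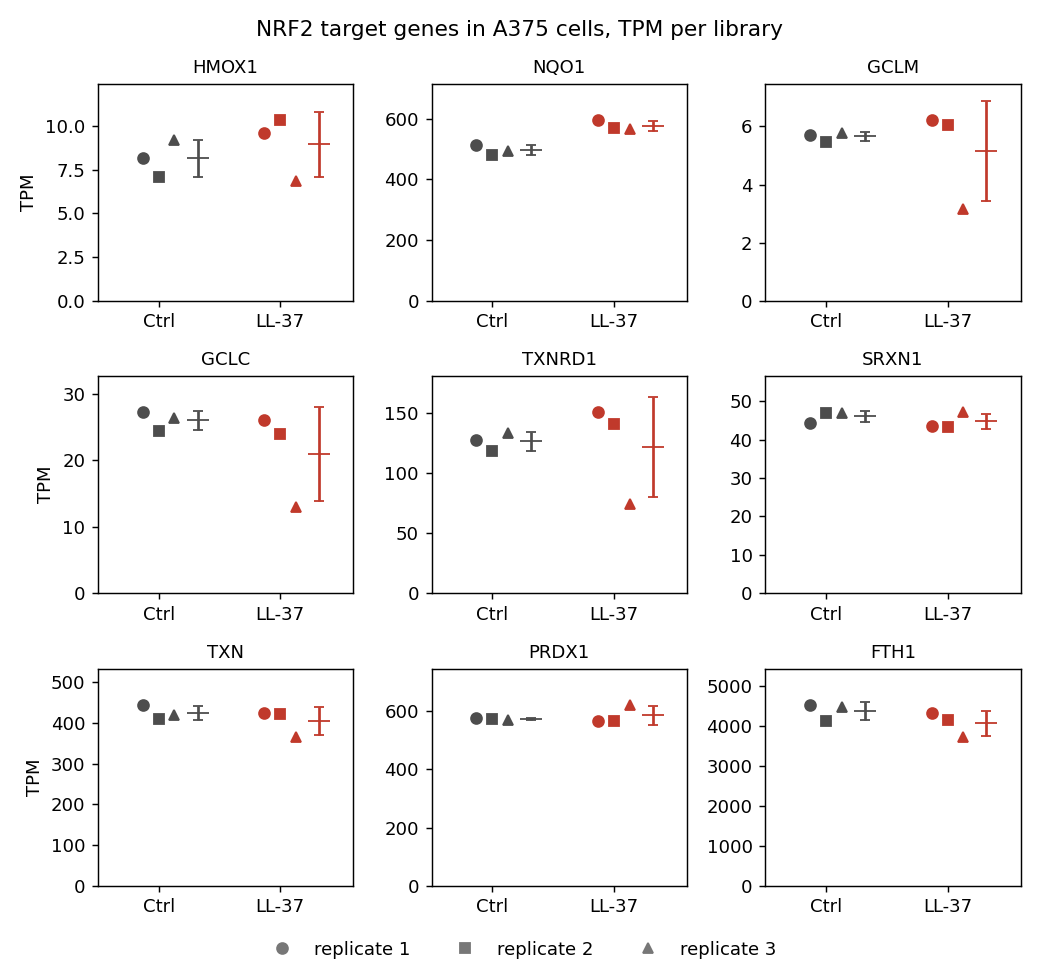
TPM (vertical axes, each starting at 0) of the 9 genes in the 3 Ctrl and 3 LL-37 libraries, with marker shapes for replicate numbers and a bar for the mean with its SD (n = 3). The LL-37 points of NQO1 lie above all Ctrl points, and the triangle of LL-37 replicate 3 lies far below the other LL-37 points for GCLM, GCLC and TXNRD1.

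The order of the mean levels was the same in both groups, from FTH1 through PRDX1, NQO1, TXN, TXNRD1, SRXN1, GCLC and HMOX1 to GCLM. In Ctrl no 2 neighbours in this order overlapped in their library values. With LL-37, PRDX1 (566.3 to 622 TPM) and NQO1 (564.3 to 595.9 TPM) overlapped and the other neighbours did not.

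Promoter sequence was available for 6 of the 9 genes (RefSeq, GRCh38.p14), in 7 windows from 250 bases before to 50 bases after a transcription start. The core of the antioxidant response element, searched as TGACNNNGC on both strands, was found in 3 of these 7 windows, that of GCLM and both of TXNRD1, a gene with an upstream and a downstream start in the table. Over all 35116 windows of that length 13.3% held a match, and 14 of 80 windows of the other pathway genes described below did. A match is a description of the letters, not evidence of binding. The windows of NQO1, GCLC, SRXN1 and TXN held no match, but sequence further from the start was not searched. Sequence is shown for GCLM and TXNRD1 because only their windows held a match. GCLM and TXNRD1, at unlike levels, also had the highest correlation among the 9 over the 6 libraries. GCLC, without a match, correlated at 0.97 with GCLM and at 0.93 with TXNRD1. These correlations include the low values of LL-37 replicate 3, and a link between pattern and matches was not tested. Capitals mark the match, each sequence is written 5′ to 3′ on the strand of its gene, and a match that starts with GC is read as TGACNNNGC on the opposite strand.
GCLM, chr1:93909431-93909504, minus strand: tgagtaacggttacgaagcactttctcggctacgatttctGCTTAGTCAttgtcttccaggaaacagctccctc
TXNRD1 upstream start, chr12:104215640-104215728, plus strand: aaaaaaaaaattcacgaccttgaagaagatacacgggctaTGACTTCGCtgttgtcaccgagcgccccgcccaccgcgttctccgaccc
TXNRD1 downstream start, chr12:104286890-104286978, plus strand: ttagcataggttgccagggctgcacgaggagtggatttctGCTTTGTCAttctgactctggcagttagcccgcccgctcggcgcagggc
The match of GCLM lay 34 to 26 bases before its start, and those of TXNRD1 lay 99 to 91 bases before the upstream start and 102 to 94 bases before the downstream start. The GCLM match and the downstream TXNRD1 match, read on the opposite strand, were TGACTAAGC and TGACAAAGC. The upstream TXNRD1 window held another match, TGACGGAGC on the opposite strand, that reached the start itself.

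NQO1 (ENSG00000181019, chromosome 16, 69706996 to 69726951, minus strand, GRCh38) encodes a quinone reductase that turns quinones into hydroquinones without a radical intermediate and is a standard readout of NRF2 activity. It was 513.5, 481.3 and 494.3 TPM in Ctrl replicates 1 to 3 and 595.9, 567.4 and 564.3 TPM in LL-37 replicates 1 to 3. All 3 LL-37 libraries were above all Ctrl libraries, and LL-37 replicate 3 lay close to replicate 2. Group means were 496.4 ± 16.2 TPM and 575.8 ± 17.4 TPM (SD, n = 3). The log2 difference was 0.21 ± 0.083 (SE; 95% interval 0.016 to 0.41; limma, adjusted p = 0.739), and an exact two-sided permutation test over the libraries gave p = 0.1, the smallest that 3 against 3 allows. Without LL-37 replicate 3 the difference was 0.23 ± 0.054 (SE; 95% interval 0.10 to 0.35; limma, adjusted p = 0.199). The log2 difference of NQO1 was above 0 in all 17 alternative settings, between 0.19 and 0.46, with adjusted p from 0.137 to 0.921 (limma). Since its groups were apart, another pseudocount, filter, block or trend setting or a left-out library could not turn this direction.

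HMOX1 (ENSG00000100292, chromosome 22, 35380361 to 35394214, plus strand) encodes heme oxygenase 1, which opens the heme ring and releases iron. It was low, at 8.20, 7.08 and 9.18 TPM in Ctrl and 9.63, 10.4 and 6.86 TPM with LL-37. LL-37 replicates 1 and 2 were above all Ctrl libraries and replicate 3 was below all of them. The log2 difference was 0.11 ± 0.21 (SE; limma, adjusted p = 0.809) over the 6 libraries. It was 0.27 ± 0.12 with LL-37 replicate 3 left out (limma, adjusted p = 0.582), a ratio of means of 1.23. FTH1 (ENSG00000167996, chromosome 11, 61959718 to 61967660, minus strand) encodes the ferritin heavy chain, which oxidises iron for storage, and had the highest level of the 9. Its values were 4529, 4114 and 4475 TPM in Ctrl and 4325, 4137 and 3722 TPM with LL-37, so that replicates 1 and 2 fell inside the Ctrl range and replicate 3 below it. The log2 difference of FTH1 was -0.11 ± 0.090 (SE; 95% interval -0.32 to 0.11; limma, adjusted p = 0.739) and -0.05 ± 0.057 without LL-37 replicate 3 (adjusted p = 0.892).

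GCLC (ENSG00000001084, chromosome 6, 53497341 to 53616970, minus strand) and GCLM (ENSG00000023909, chromosome 1, 93885205 to 93909456, minus strand) encode the catalytic and modifier subunits of glutamate-cysteine ligase, the rate-limiting enzyme of glutathione synthesis. GCLC was 27.2, 24.4 and 26.4 TPM in Ctrl and 25.96, 23.9 and 12.9 TPM with LL-37. GCLM was 5.71, 5.47 and 5.79 TPM in Ctrl and 6.23, 6.06 and 3.16 TPM with LL-37. Both were lowest in LL-37 replicate 3. In replicates 1 and 2 GCLM was above the Ctrl range, while GCLC was within it in replicate 1 and just below it in replicate 2. The log2 difference was -0.36 ± 0.27 for GCLC and -0.16 ± 0.26 for GCLM (SE; limma, adjusted p = 0.739 and 0.776). It was -0.06 ± 0.086 and 0.10 ± 0.11 without LL-37 replicate 3 (adjusted p = 0.919 and 0.870), so that the direction of GCLM turned.

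TXNRD1 (ENSG00000198431, chromosome 12, 104215779 to 104350305, plus strand) encodes thioredoxin reductase 1, a selenoprotein that uses NADPH to reduce thioredoxin, the product of TXN. TXNRD1 was 127.8, 118.4 and 133.7 TPM in Ctrl and 150.8, 141.3 and 74.1 TPM with LL-37. LL-37 replicates 1 and 2 were above all Ctrl libraries, with a mean 1.15 times that of Ctrl, and replicate 3 was below all of them. The log2 difference was -0.12 ± 0.27 (SE; 95% interval -0.76 to 0.53; limma, adjusted p = 0.834) and turned to 0.21 ± 0.071 without LL-37 replicate 3 (95% interval 0.042 to 0.37; adjusted p = 0.410). TXN (ENSG00000136810, chromosome 9, 110243811 to 110256640, minus strand) was 444.6, 409.04 and 419.98 TPM in Ctrl and 425.3, 423.0 and 364.7 TPM with LL-37. Replicates 1 and 2 of TXN fell inside the Ctrl range and replicate 3 below it, with a log2 difference of -0.07 ± 0.10 (SE; limma, adjusted p = 0.754) that was 0.00 ± 0.056 without LL-37 replicate 3 (95% interval -0.13 to 0.13).

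PRDX1 (ENSG00000117450, chromosome 1, 45511036 to 45523047, minus strand) encodes a peroxiredoxin that destroys hydrogen peroxide and is recharged by thioredoxin, and SRXN1 (ENSG00000271303, chromosome 20, 646615 to 653370, minus strand) encodes sulfiredoxin, which repairs overoxidised peroxiredoxins. PRDX1 was 577.8, 572.6 and 569.1 TPM in Ctrl and 566.3, 567.7 and 622 TPM with LL-37. LL-37 replicates 1 and 2 were just below the Ctrl range and replicate 3 above it. SRXN1 was 44.4, 46.96 and 46.9 TPM in Ctrl and 43.7, 43.4 and 47.1 TPM with LL-37, and here too LL-37 replicates 1 and 2 were below the Ctrl range and replicate 3 above it. The log2 difference was 0.03 ± 0.085 for PRDX1 (SE; 95% interval -0.17 to 0.23) and -0.04 ± 0.12 for SRXN1 (95% interval -0.32 to 0.23; limma, adjusted p = 0.870 and 0.859). Without LL-37 replicate 3 the values were -0.02 ± 0.047 and -0.08 ± 0.069 (adjusted p = 0.968 and 0.839).

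**Figure D2:**
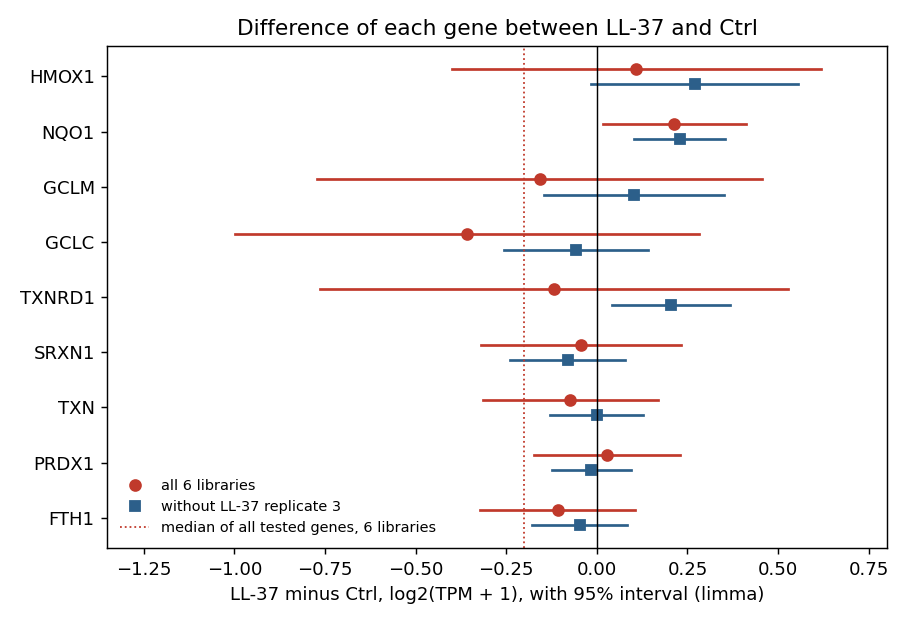
Difference between LL-37 and Ctrl on the log2(TPM + 1) scale (horizontal axis) for each gene, with 95% intervals from limma, with all 6 libraries (circles) and without LL-37 replicate 3 (squares). The dotted line is the median of all tested genes with 6 libraries, -0.20. The interval of NQO1 lies above 0 in both fits, that of TXNRD1 only without LL-37 replicate 3, and those of GCLC, GCLM and TXNRD1 narrow most.

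TXN, PRDX1 and FTH1 have processed pseudogenes that can take reads from the parent gene. The table held 7 pseudogene rows for TXN, 1 for PRDX1 and 25 for FTH1, of which TXNP4, PRDX1P1 and FTH1P2 had the highest means. Summed over these rows, the pseudogenes reached at most 0.28%, 0.34% and 0.38% of the level of their parent in any library. Adding them gave log2 differences of -0.07, 0.03 and -0.11 for TXN, PRDX1 and FTH1.

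Some of the 9 act as partners, and their ratio within a library does not depend on a scaling factor shared by all its genes. These 4 pairs were chosen after the levels had been seen. Such a ratio is not free of the transcript length trend of LL-37 replicate 3 described below. TXN and TXNRD1, for example, have transcripts of 869 and 4277 bases. The part of length in the ratios was not tested. The ratio of GCLC to GCLM was 4.76, 4.45 and 4.56 in Ctrl and 4.17, 3.94 and 4.08 with LL-37. All 3 LL-37 libraries were below all Ctrl libraries, replicate 3 included, and the exact two-sided permutation p was 0.1, the smallest possible (Benjamini-Hochberg adjusted p = 0.267 over the 4 pairs). The ratio of TXN to TXNRD1 was 3.48, 3.45 and 3.14 in Ctrl and 2.82, 2.99 and 4.92 with LL-37, lower than Ctrl in replicates 1 and 2 and higher in replicate 3 (exact permutation p = 1). PRDX1 to SRXN1 was 12.1 to 13.02 in Ctrl and 12.97 to 13.2 with LL-37, and FTH1 to HMOX1 was 487.4 to 581.1 and 399.3 to 542.6, with overlapping groups for both (exact permutation p = 0.2 for each, adjusted p = 0.267).

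The deviation of LL-37 replicate 3 was related to transcript length over all genes, and not all of the 9 followed that relation. Over 13878 tested genes with a transcript length in GENCODE 29, the log2 difference of this library from the mean of LL-37 replicates 1 and 2 had a Spearman rho of -0.55 with length, given as a description across genes of the same libraries. Ctrl replicate 2 also had a length trend, with a rho of -0.36 between length and its deviation from the Ctrl mean. The rho was 0.20 and 0.14 in Ctrl replicates 1 and 3, 0.058 and -0.13 in LL-37 replicates 1 and 2 and -0.58 in LL-37 replicate 3. The Ctrl mean includes each Ctrl library itself but no LL-37 library. The Ctrl values therefore depend on each other and have another reference than the LL-37 values. The median difference of LL-37 replicate 3 from the other LL-37 libraries was -0.02 for the 1458 genes with transcripts of up to 1000 bases and -0.99 for the 4785 genes over 4000 bases. GCLM, TXNRD1 and GCLC have the longest transcripts of the 9 (4857, 4277 and 3813 bases) and lay -0.78, -0.97 and -0.90 from the other LL-37 libraries. The transcripts of TXN, FTH1, PRDX1 and HMOX1 are 869, 1229, 1234 and 1822 bases long, and their differences were -0.22, -0.18, 0.13 and -0.48. Against that order, NQO1, with 2912 bases, lay at -0.04 and SRXN1, with 2698 bases, at 0.11, while the median of the 5019 genes between 2000 and 4000 bases was -0.58. The part of transcript length in these differences was not tested. With the length trend of each library removed, an alternative chosen after the data were seen, the log2 differences over all 6 libraries turned to 0.15 for GCLM, 0.17 for TXNRD1 and 0.13 for SRXN1, and stayed below 0 for GCLC, at -0.10.

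**Figure D3:**
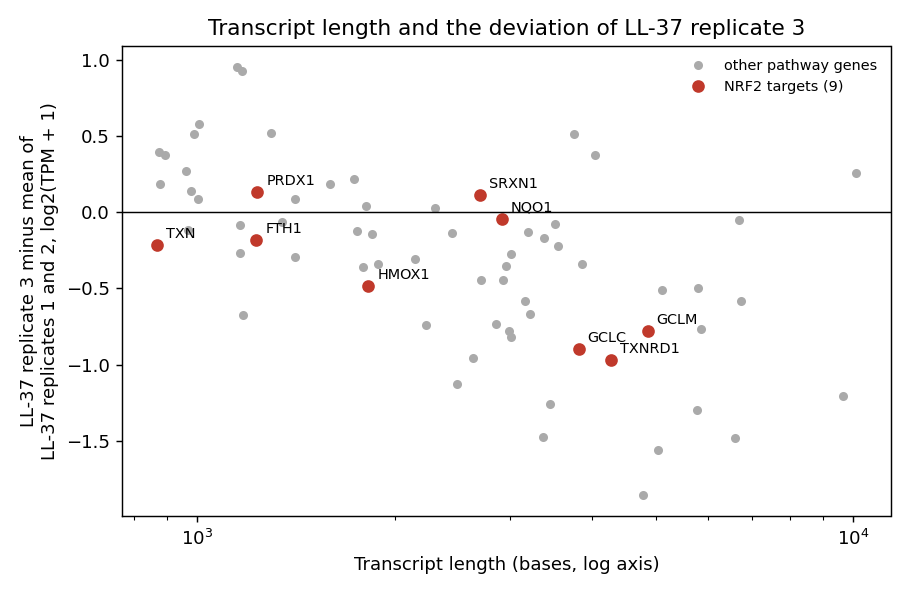
Log2(TPM + 1) of LL-37 replicate 3 minus the mean of LL-37 replicates 1 and 2 (vertical axis) against transcript length on a log axis, for the 9 NRF2 targets (red, named) and the other pathway genes with a known length (grey). GCLC, GCLM and TXNRD1 sit at the lower right, between -0.78 and -0.97, and NQO1 sits near 0 at 2912 bases.

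The wider pathway was described with a list of 64 other genes in 7 groups, of which 61 passed the filter. None of the 61 passed over all tested genes with or without LL-37 replicate 3 (limma). At an unadjusted p under 0.05 there was 1 of the 61 over the 6 libraries, beside 2.52% of all tested genes, and 14 (9 higher, 5 lower, 23.0% of the 61) with LL-37 replicate 3 left out, beside 9.01%. Over the 6 libraries the groups were apart for 1 gene that was higher and 9 that were lower, 1.64% and 14.8% of the 61 beside 2.13% and 10.3% of all tested genes. Once LL-37 replicate 3 was left out these counts were 11 and 14, 18.0% and 23.0% of the 61 beside 12.3% and 12.9%. The list had a median log2 difference of -0.11, which was -0.04 without that library, beside -0.20 and 0.00 for all tested genes.

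Regulators of NRF2 were spread widely. SQSTM1, a target of NRF2 whose product p62 draws KEAP1 into autophagy, was 541.5, 543.7 and 593.2 TPM in Ctrl and 731.4, 699.8 and 416.8 TPM with LL-37. Its LL-37 replicates 1 and 2 were above all Ctrl libraries and replicate 3 below all of them, with a log2 difference of 0.10 (limma, adjusted p = 0.832) that was 0.36 without LL-37 replicate 3 (adjusted p = 0.0911). NFE2L2 itself was 51.9, 45.4 and 49.2 TPM in Ctrl and 53.1, 49.96 and 30.6 TPM with LL-37, and KEAP1 was 52.8, 46.6 and 49.6 TPM and 53.4, 49.2 and 39.8 TPM. For both, LL-37 replicate 3 was the lowest library and replicates 1 and 2 lay in or just above the Ctrl range. The log2 differences of NFE2L2 and KEAP1 were -0.17 and -0.07 over the 6 libraries (limma, adjusted p = 0.749 and 0.817). They were 0.08 and 0.05 without replicate 3 (adjusted p = 0.870 and 0.933).

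BACH1, the repressor, was 18.7, 18.3 and 17.9 TPM in Ctrl and 17.9, 14.5 and 5.97 TPM with LL-37, the 1 regulator below the Ctrl range in every LL-37 library (17.86 against a lowest Ctrl value of 17.92 in the nearest pair). This 1 gene is 11.1% of the 9 regulators, near the 10.3% of all tested genes that were apart and lower. The log2 difference of BACH1 was -0.61, and -0.17 without LL-37 replicate 3 (limma, adjusted p = 0.739 and 0.718). Its transcript is long, at 5769 bases, and LL-37 replicate 3 lay -1.30 from the other LL-37 libraries. The small MAF partners MAFG, MAFF and MAFK had log2 differences of -0.34, -0.16 and -0.38 over the 6 libraries, and of 0.18, 0.22 and 0.11 without LL-37 replicate 3. NFE2L1, the gene of the related factor NRF1 that drives proteasome genes, went from -0.47 to 0.15, and CUL3 was at -0.27 and -0.08. In all, 1 of the 9 regulators was above 0 over the 6 libraries, where 19.7% of all tested genes were, and 7 were once LL-37 replicate 3 was left out, where 48.7% were, as the plot of pathway groups shows.

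**Figure D4:**
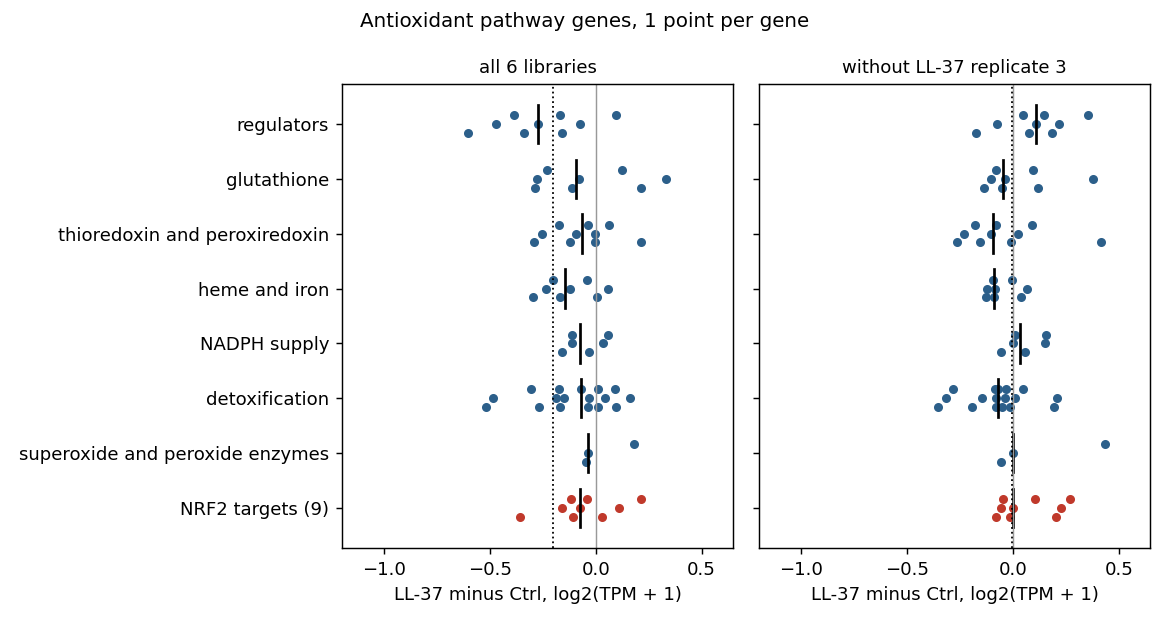
Difference between LL-37 and Ctrl on the log2(TPM + 1) scale (horizontal axes) for tested genes of 7 pathway groups (blue) and the 9 NRF2 targets (red), with a black bar for each group's median and a dotted line for the median of all tested genes. The median of the regulators is -0.27 in the left panel (6 libraries) and 0.11 in the right panel (LL-37 replicate 3 left out).

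In the glutathione group (8 tested), CHAC1, which degrades glutathione and is a target of ATF4, was the gene whose LL-37 libraries were all above Ctrl, at 17.3, 17.3 and 15.6 TPM in Ctrl and 22.3, 21.8 and 19.9 TPM with LL-37. Its log2 difference was 0.33 (limma, adjusted p = 0.739) and 0.38 without LL-37 replicate 3 (adjusted p = 0.189). This 1 gene is 12.5% of the 8, beside 2.13% of all tested genes, and 0 of the 8 were apart and lower (10.3%). The glutathione peroxidases GPX1 and GPX4 were at 0.21 and 0.13. GPX1, with a transcript of 1151 bases, was 499.1 TPM in LL-37 replicate 3 and 245.2 to 307.8 TPM in the other 5 libraries, and its difference was -0.10 without that library.

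Among the 10 thioredoxin and peroxiredoxin genes, PRDX5 and PRDX2 had the highest levels, with log2 differences of 0.21 and -0.01 (0.09 and -0.18 without LL-37 replicate 3). SESN1, a sestrin gene under p53 control, was below Ctrl in all LL-37 libraries, at 5.38, 5.87 and 5.20 TPM against 4.05, 4.75 and 4.10 TPM (log2 difference -0.29, and -0.27 without LL-37 replicate 3; limma, adjusted p = 0.739 and 0.590). It was 1 of 2 genes of the 10 that were apart and lower, and 0 were apart and higher. These were 20% and 0%, beside 10.3% and 2.13% of all tested genes. SESN2, the other sestrin gene listed and a target of ATF4, was named after its values were seen. It was 17.5, 15.8 and 17.6 TPM in Ctrl and 23.5, 22.4 and 9.01 TPM with LL-37. The log2 difference of SESN2 was -0.005 over the 6 libraries and 0.41 without LL-37 replicate 3 (limma, adjusted p = 0.989 and 0.162). Without that library SESN2 was the 1 gene of the 10 that was apart and higher, while 3 were apart and lower. These were 10% and 30%, beside 12.3% and 12.9% of all tested genes. In the heme and iron group (8 of 9 tested), FTL, the ferritin light chain gene, was 1815 to 2121 TPM in Ctrl and 1961 to 2269 TPM with LL-37, and TFRC, the transferrin receptor gene, was below Ctrl in all LL-37 libraries, at 110.9, 101.6 and 110.2 TPM against 99.1, 97.8 and 68.9 TPM. The log2 difference of TFRC was -0.29, and -0.13 without LL-37 replicate 3 (limma, adjusted p = 0.739 and 0.657). TFRC was 1 of 3 genes of these 8 that were apart and lower, and 0 were apart and higher. These were 37.5% and 0%, beside 10.3% and 2.13% of all tested genes.

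Of the 6 genes that supply NADPH through the pentose phosphate pathway and related enzymes, TKT and PGD had the highest levels, with log2 differences of 0.06 and -0.11. TKT, transketolase, was 455.3 to 481.6 TPM in Ctrl and 519.95, 520.2 and 429.7 TPM with LL-37. It was above Ctrl in LL-37 replicates 1 and 2 and below it in replicate 3, with a difference of 0.15 without that library (limma, adjusted p = 0.390). In the detoxification group (17 of 19 tested), GSTP1 and MGST1 had the highest levels, with log2 differences of 0.01 each. ABCC2, an export pump for glutathione conjugates, was below Ctrl in all LL-37 libraries, at 18.5, 15.3 and 16.0 TPM against 12, 13.5 and 8.71 TPM (log2 difference -0.52, and -0.35 without LL-37 replicate 3; limma, adjusted p = 0.739 and 0.348). It was 1 of 3 genes of the 17 that were apart and lower, and 0 were apart and higher. These were 17.6% and 0%, beside 10.3% and 2.13% of all tested genes. Without LL-37 replicate 3, 1 higher and 3 lower genes of the 17 had an unadjusted p under 0.05 (limma), 23.5% beside 9.01%.

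The superoxide and peroxide enzymes were SOD1, SOD2 and CAT. SOD2, the mitochondrial superoxide dismutase gene and also a target of NF-kB, was 41.2, 36.8 and 42.7 TPM in Ctrl and 55.6, 53.8 and 31.7 TPM with LL-37. LL-37 replicates 1 and 2 were above all Ctrl libraries and replicate 3 below them, with a log2 difference of 0.18 (limma, adjusted p = 0.747) that was 0.44 without replicate 3 (adjusted p = 0.109). The cytosolic SOD1 and the catalase gene CAT were at -0.04 and -0.05, and at 0.00 and -0.06 without that library.

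Correlations over the 6 libraries describe which genes shared a pattern, and they share the deviation of LL-37 replicate 3. Among the 9, TXNRD1 and GCLM had the highest Pearson correlation of log2(TPM + 1), 0.99, and PRDX1 and GCLM the lowest, -0.99, while NQO1 lay between -0.60 and 0.39 with the other 8. Among 7696 other genes with a symbol and a mean of at least 10 TPM, the most alike to NQO1 was NOX4 (r = 0.97, 6 libraries), an NADPH oxidase gene. NOX4 was 12.8, 11.7 and 12.4 TPM in Ctrl and 14.1, 13.7 and 13.4 TPM with LL-37, a pattern for which it was picked. The most alike to HMOX1 was SERTAD4 (r = 0.95). For GCLM, GCLC, TXNRD1, SRXN1, TXN, PRDX1 and FTH1 they were SLC35F6, EBF3, TNFRSF14, CCDC28B, ZRSR2, RARS2 and TPD52, with r from 0.99 to 1.00.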

How the data were processed

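The authors deposited 1 table of TPM for the human libraries, and the libraries were stranded and poly(A) selected, per the labels' protocols. GRCh38 is named in the submitters' processing notes. How reads were aligned and quantified is not given in the sources used here. Since TPM are shares of a fixed total, fewer long transcripts or a few very abundant ones shift the values of other genes. Identifiers were matched to symbols for 62541 of 63140 rows. Genes that reached 1 TPM in 3 or more of the 6 libraries were tested on log2(TPM + 1), a scale that understates differences of low genes, with limma 3.58.1 in R 4.3.3 (intensity trend, two-sided, Benjamini-Hochberg over all 14399 genes, threshold 0.05) and checked on simulated data. Left-out libraries kept these genes. The 9 genes and the pathway list were chosen with earlier results of these data known. All regulators were named, and per other group the 2 most abundant genes, the largest difference and any gene past the threshold. The values of 1 gene that this rule takes are not reported here. Coordinates and transcript lengths came from GENCODE 29 (principal or longest transcript), promoters from RefSeq. Mouse libraries were not analysed here.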

Additional observations from a re-analysis of the deposited data

How the results depend on the processing

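No NRF2 target passed under any of the 17 alternatives of the limma test or with pseudogene rows added, and 17 of the 156 differences turned in direction. In 36 of the 156 (other filters, the replicate block, no intensity trend) the difference is the same by construction. Of the 120 whose size could move, 103 kept their direction. For NQO1, whose groups were apart, other pseudocounts and left-out libraries could change the size but not the direction. Of the 17 turns, 5 came with median-of-ratios scaling, which shifts all genes of a library alike. This scaling moved the median of all tested genes from -0.20 to 0.01 and that of the 9 to 0.18 (pathway list 0.14), with GCLM at 0.044, TXNRD1 at 0.13, SRXN1 at 0.20, TXN at 0.18 and FTH1 at 0.14. Quantile normalization gave medians of 0.036 and 0.037, with GCLM at 0.086 and SRXN1 at 0.095. Removing length trends, chosen after the data were seen, gave medians of 0.13 and 0.041, with GCLM at 0.15, TXNRD1 at 0.17 and SRXN1 at 0.13. With LL-37 replicate 3 left out as well, 11 genes passed, and GCLM was 0.11, TXNRD1 0.21, TXN 0.0018 and PRDX1 -0.015. Leaving out each library in turn gave 0 to 17 genes, -0.30 to 0.10 for GCLM, -0.30 to 0.21 for TXNRD1 and -0.016 to 0.052 for PRDX1, and the turns of these 3 and the 17 genes came without LL-37 replicate 3. The cause of the turns was not tested. NQO1 and HMOX1 stayed above 0 and GCLC below 0 in all settings, though HMOX1 ranged from 0.0044 to 0.37. With the replicate number as a block 0 genes passed and NQO1 stayed at 0.21 (adjusted p = 0.837). The numbers were not taken to pair samples, since the labels give no shared batch or day. Deviations of same-numbered libraries correlated at 0.091, -0.20 and -0.17. These values cannot decide on pairing, because LL-37 replicates 1 and 2 had the same sign with each Ctrl library and replicate 3 the opposite sign. Depth is unknown, so that the precision of the low GCLM and HMOX1 values cannot be given.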

Other observations

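NQO1-DT, named as a divergent transcript of NQO1, was 2.76, 3.14 and 4.93 TPM in Ctrl and 5.35, 5.63 and 4.68 TPM with LL-37. It was looked up after the NQO1 values had been seen. LL-37 replicates 1 and 2 were above all Ctrl libraries and replicate 3 was below Ctrl replicate 3, and the log2 difference was 0.46 ± 0.23 (SE; limma, adjusted p = 0.739). Whether the counting used strand is not given in the sources used here, so that reads of the 2 genes may not be fully told apart.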
